A study of Mus musculus with 12 samples.

Results

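The 10 genes described here, Cpeb1, Dazl, Pabpc1l, Eif4e1b, Eif4enif1, Ybx2, Lsm14b, Patl2, Ddx6 and Zar1, encode proteins that store or repress mRNA in the oocyte. They were chosen by symbol and matched by Ensembl identifier (GENCODE mouse M21, GRCm38), and they are 10 of the 55573 genes in the count tables. The study sequenced poly(A) RNA of single mouse oocytes under different amplification cycles and inputs. ERCC molecules, a mix of synthetic RNAs, were added in equal volume to each lysate. The paper used the portions of oocytes to illustrate normalization to these molecules. Germinal vesicle (GV) oocytes, which are arrested in meiotic prophase, came from a healthy B6D2F1 female 12 weeks old and were held in M2 medium with milrinone, which keeps them arrested. There were 6 groups of 2 libraries each: whole oocytes amplified for 10, 14 or 18 cycles, and portions holding 1/2, 1/4 or 1/8 of an oocyte, taken after lysis and amplified for 18 cycles. The labels leave out the cycle number of the portions, which comes from the published methods. No group was treated or mutated. The 6 whole-oocyte libraries came from 6 oocytes, while the 6 portion libraries came from only 2 others, and which oocyte each portion came from is not given. The tests below treat every portion library as separate, and spread between portions of 1 oocyte was not told apart from spread between oocytes.

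A GV oocyte of full size makes almost no new RNA and depends on transcripts made during growth, many of which are kept untranslated with short poly(A) tails. Repressor complexes on the cap and on the 3′ untranslated region (UTR) hold these transcripts, and cytoplasmic polyadenylation at meiotic resumption releases many of them for translation. The proteins encoded by these 10 genes act at several of these steps, and loss of some of them causes female sterility in mice.

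Gene counts per library ranged from 1702062 to 13806199. The replicates had 11597144 and 9189672 gene counts at 10 cycles, 12349577 and 13806199 at 14 cycles, and 3017069 and 1706478 in whole oocytes at 18 cycles. The portions had 4024670 and 3598549 for 1/2, 4027907 and 5049518 for 1/4, and 11404262 and 1702062 for 1/8. Whole oocytes at 18 cycles and replicate 2 of 1/8 were therefore shallow, and their values are less reliable. Levels are given as CPM, a gene's share of the gene counts of its library on the per-million scale, so a gene's CPM is higher where other genes take fewer counts. The GV oocyte label was checked against its markers: all 10 oocyte markers had counts in all 12 libraries, with summed levels from 5983 to 25110 CPM. Gdf9, an oocyte growth factor, was the most abundant of them in 10 libraries and Ooep, of the subcortical maternal complex, in the other 2. Granulosa and cumulus markers summed to 197 and 86.6 CPM at 10 cycles, 111 and 162 at 14 cycles, and 66.0 and 28.1 in whole oocytes at 18 cycles. The portions had 34.0 and 32.5 CPM for 1/2, 55.4 and 60.4 for 1/4, and 78.8 and 70.5 for 1/8, so this sum differed between the groups compared below. It was led by Nr5a2, Cyp19a1 or Hsd3b1, while Fshr had no counts in 9 libraries and Amhr2 and Foxl2 none in 7. Stroma and theca markers reached at most 12.2 CPM and blood and immune markers 6.55 CPM, with Hbb-bt, Hba-a1 and Hba-a2 at 0 in all 12.

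Whole oocytes at 18 cycles stood at one end of the libraries before any test. Their summed oocyte markers were 7130 and 5983 CPM, below 9309 and 8778 for 1/2, 12980 and 14080 for 1/4, 19880 and 19420 for 1/8, 24090 and 21540 at 10 cycles, and 23550 and 25110 at 14 cycles. They also held 1873 and 1158 gene counts per ERCC count, against 323.5 to 360 in the 4 whole oocytes at 10 and 14 cycles. Whether cycle number, depth or something else separates these 2 libraries cannot be told apart, and every comparison with them shares that limit.

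Zar1, which encodes an RNA-binding protein of the mitochondria-associated store of maternal mRNA, was the most abundant member. Per length, that is, counts divided by the length of the union of a gene's exons and scaled to the same total in each library, the order of mean levels was Zar1, Lsm14b, Cpeb1, Eif4e1b, Dazl, Eif4enif1, Pabpc1l, Ybx2, Patl2 and Ddx6. Mean per-length levels over the 12 libraries ran from 3073 for Zar1 and 981.7 for Lsm14b to 77.9 for Patl2 and 12.8 for Ddx6. Neighbours in this order were separated in all 12 libraries for Eif4e1b above Dazl, Pabpc1l above Ybx2, and Patl2 above Ddx6. Zar1 was above Lsm14b in 11 of 12, and Lsm14b, Cpeb1 and Eif4e1b did not separate beyond their spread: Lsm14b exceeded Cpeb1 in 4 libraries and Cpeb1 exceeded Eif4e1b in 6. Dazl was above Eif4enif1 in 10 and Eif4enif1 above Pabpc1l in 8. Ybx2 and Patl2 did not separate either: Ybx2 was the higher in the 6 libraries of whole oocytes at 18 cycles, 1/2 and 1/4, and Patl2 in the other 6, so the order of the means does not hold in every group. Dividing by the longest transcript in place of the exon union put Cpeb1 in place 2 and Lsm14b in place 3. With that length Dazl exceeded Eif4enif1 in only 6 libraries, Lsm14b exceeded Cpeb1 in 3 and Ybx2 exceeded Patl2 in 7. Cpeb1 exceeded Eif4e1b in 10, and Zar1 exceeded Lsm14b and Eif4enif1 exceeded Pabpc1l in 12. The pairs separated in all 12 libraries stayed so, and the other separations depend on the length used.

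Cpeb1, Dazl and Pabpc1l act on the poly(A) tail and the 3′ UTR. Cpeb1 (ENSMUSG00000025586, chromosome 7) binds the cytoplasmic polyadenylation element and both represses and activates its targets. Its levels were 1362 and 1120 CPM at 10 cycles, 1109 and 1095 at 14 cycles and 1759 and 1540 in whole oocytes at 18 cycles. The portions had 919.1 and 1364 CPM for 1/2, 1166 and 1158 for 1/4, and 1271 and 1304 for 1/8. Cpeb1 was the steadiest member, with a highest value 1.91 times its lowest, and whole oocytes at 18 cycles were above every other library.

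Dazl (ENSMUSG00000010592, chromosome 17), a germ cell RNA-binding protein that works with CPEB1 in the translation of maternal mRNA, was at 480.5 and 441 CPM at 10 cycles, 753 and 705 at 14 cycles and 264 and 115 in whole oocytes at 18 cycles. It had 442 and 307 CPM in 1/2, 373 and 509 in 1/4 and 584 and 631 in 1/8. Whole oocytes at 18 cycles were lowest and did not overlap any other group. Pabpc1l (ENSMUSG00000054582, chromosome 2), the poly(A)-binding protein of oocytes, was at 204 and 157 CPM at 10 cycles, 162 and 206 at 14 cycles, with 289 and 209.8 after 18. The portions of 1/2 held 165 and 193 CPM, those of 1/4 held 216 and 197 and those of 1/8 held 166 and 123. Each of its groups overlapped at least 1 other group.

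A pair of members act at the cap. Eif4e1b (ENSMUSG00000074895, chromosome 13), the oocyte form of the cap-binding protein, had 843 and 630.3 CPM at 10 cycles, 813 and 809 at 14 cycles and 376 and 386 in whole oocytes at 18 cycles. It had 472 and 488 CPM in 1/2, 563 and 709 in 1/4 and 813 and 613 in 1/8. The lowest group was again the whole oocytes at 18 cycles, and 1/8 lay within the range of the 10-cycle oocytes or just under it. Eif4enif1 (ENSMUSG00000020454, chromosome 11) encodes 4E-T, which binds cap-binding proteins and blocks initiation, and its levels were 732 and 571 CPM at 10 cycles, 649 and 673 at 14 cycles, with 558 and 470.0 after 18. The portions of 1/2 held 381 and 441 CPM, those of 1/4 held 580.5 and 550.3 and those of 1/8 held 605 and 489. Like Cpeb1 it varied less than 2-fold over the 12 libraries.

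The other 5 members are parts of stored ribonucleoprotein particles. Zar1 (ENSMUSG00000063935, chromosome 5) had 1434 and 1388 CPM at 10 cycles and 1554 and 1841 at 14 cycles, but 5182 and 4801 in whole oocytes at 18 cycles. In the portions it had 6187 and 4920 CPM for 1/2, 6255 and 5473 for 1/4, and 2133 and 1444 for 1/8. Zar1 thus had a high level in the 6 libraries of whole oocytes at 18 cycles, 1/2 and 1/4, and a low level in the 6 libraries at 10 and 14 cycles and of 1/8, with no overlap between them. The other 9 members together summed to between 3080 and 5352 CPM in every library. The sum of the 10 members was 5859 ± 508 CPM (SD, n = 2) at 10 cycles, 6100 ± 172 at 14 cycles and 9815 ± 476 at 18 cycles. It was 8952 ± 445 for 1/2, 9590 ± 391 for 1/4 and 6144 ± 274 for 1/8, and most of the difference in the sum was Zar1.

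Ybx2 (ENSMUSG00000018554, chromosome 11) encodes MSY2, a germ cell Y-box protein that coats and stabilizes stored mRNA. It had 36.7 and 44.1 CPM at 10 cycles, 30.9 and 33.8 at 14 cycles and 112 and 111 in whole oocytes at 18 cycles. The portions had 95.4 and 86.4 CPM for 1/2, 71.5 and 68.7 for 1/4, and 46.0 and 37.0 for 1/8. Its level was highest in whole oocytes at 18 cycles and lower in each smaller portion, without overlap between these 4 groups, and 1/8 overlapped the 10-cycle oocytes.

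Patl2 (ENSMUSG00000027233, chromosome 2), an oocyte relative of the decapping activator Patl1 that represses translation, had 99.8 and 84.1 CPM at 10 cycles, 104 and 114 at 14 cycles and 39.8 and 17.6 in whole oocytes at 18 cycles. It had 15.7 and 21.7 CPM in 1/2, 55.9 and 57.4 in 1/4 and 62.8 and 58.2 in 1/8. The lowest values, in whole oocytes at 18 cycles and in 1/2, overlapped each other and no other group. These values rest on few reads: replicate 2 at 18 cycles had 30 counts and the 1/2 libraries 63 and 78.

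Lsm14b (ENSMUSG00000039108, chromosome 2), a RAP55 family protein of the same particles, had 985 and 1045 CPM at 10 cycles, 763 and 685 at 14 cycles, with 853 and 2493 after 18. The portions of 1/2 held 578 and 801 CPM, those of 1/4 held 530.5 and 538 and those of 1/8 held 635 and 1223. Its replicates differed more than those of any member but Ddx6 in the whole oocytes at 18 cycles, with a CV of 69.3%. Ddx6 (ENSMUSG00000032097, chromosome 9), an RNA helicase of P-bodies and stored particles, was the lowest member per length in all 12 libraries, while by CPM Ybx2 was lower in 3 of them and Patl2 in 1. It was at 40.6 and 20.6 CPM at 10 cycles, 39.9 and 60.1 at 14 cycles, with 45.7 and 8.79 after 18. The portions of 1/2 held 10.7 and 15.8 CPM, those of 1/4 held 54.9 and 52.7 and those of 1/8 held 22.4 and 28.8. The lowest of these values was 15 counts, and the whole oocytes at 18 cycles overlapped every other group except 1/4.

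**Figure D1:**
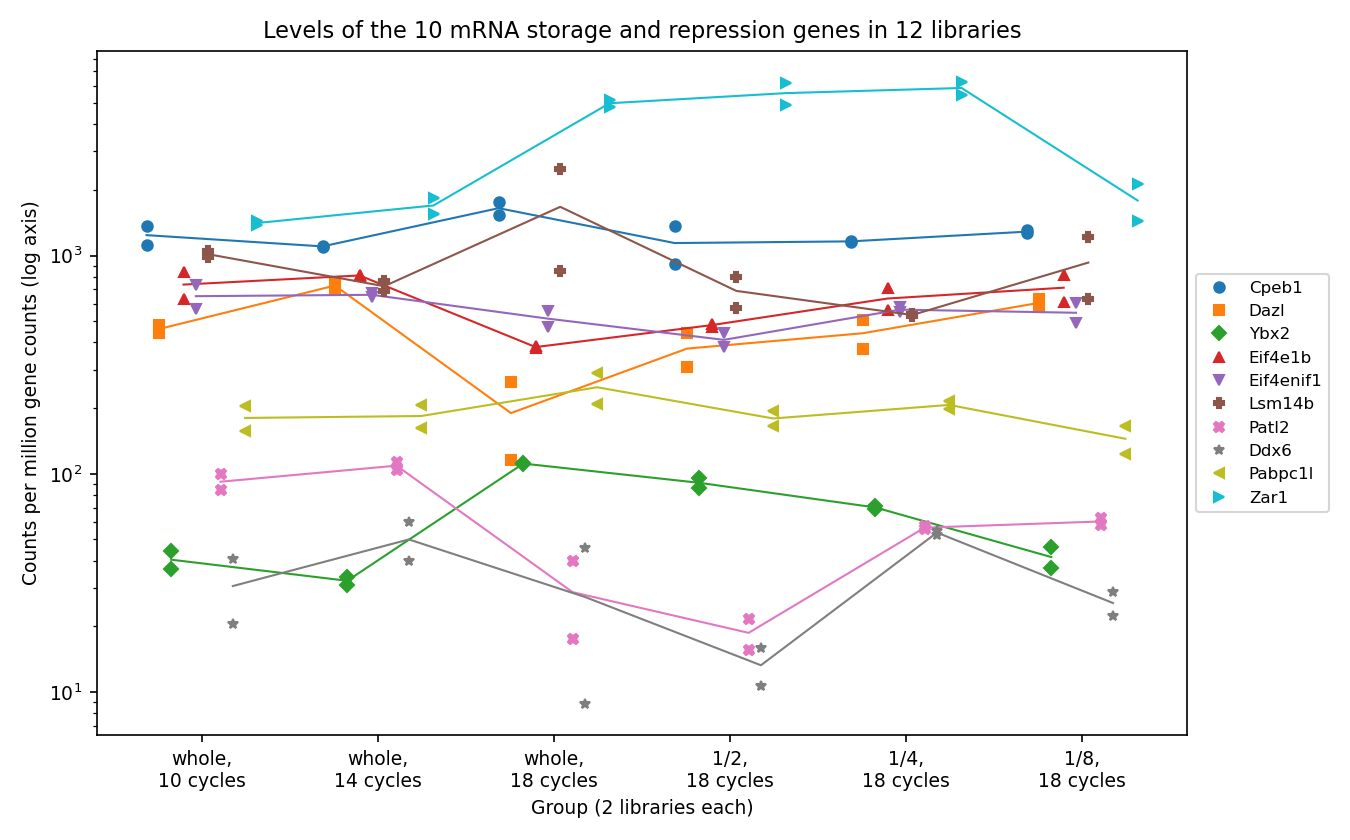
Relative abundance in CPM (vertical axis, log scale) of the 10 members in the 6 groups (horizontal axis), with 1 point for each library and lines joining group means. Zar1 lies at 4801 CPM or more in whole oocytes at 18 cycles, 1/2 and 1/4, and at 2133 CPM or less in the other groups.

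Whole oocytes at 18 cycles were compared with those at 10 cycles to describe how relative abundance differed between them. Each library was a different oocyte and depth differed too, so amplification alone cannot be told apart. Zar1 rose by 2.09 on the log2 scale (SE 0.196, adjusted p = 8.09e-05) and Ybx2 by 1.73 (SE 0.219, adjusted p = 0.000263), both higher in 2 of 2 libraries. Patl2 fell by 1.39 (SE 0.285, adjusted p = 0.00355), lower in 2 of 2 libraries, but its value was 0.95 (adjusted p = 0.102) when size factors came from ERCC molecules, a scaling that put the median of all genes at 1.96. These tests were edgeR quasi-likelihood tests over all genes with Benjamini-Hochberg adjustment, a threshold of 0.01 and size factors from median ratios over genes. The members called were 3 of 10, against 23.1% of the 17532 genes tested, and the member median was 0.41 against −0.29 over all genes. A count of 3 is near that background in this fit. DESeq2 called 7 members against 29.4% of genes, the fit without a filter 8 against 18.5%, and ERCC size factors 8 against 47.6%, so the count depends on the fit and nothing particular to the members is drawn from it. An unadjusted p under 0.05 was found for 8 members and 7989 of the genes. The 7 members not called lay between −1.03, for Dazl (adjusted p = 0.0174), and 1.03, for Lsm14b (adjusted p = 0.0803). The call of Patl2 ended without either 10-cycle library, at −1.305 (adjusted p = 0.0302) without replicate 1 and −1.475 (adjusted p = 0.0218) without replicate 2, each of which leaves a single library as the reference, assumed to vary like the others. Its size rested more on the 18-cycle libraries, at −2.023 (adjusted p = 0.00104) without replicate 1 and −0.99 (adjusted p = 0.00702) without replicate 2, which held 120 and 30 counts. The p-values rest on the spread within every group of the fit, 2 libraries in each. That spread is pooled over the groups and partly shared across genes.

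At 14 against 10 cycles, no member was called. The smallest unadjusted p was 0.0484, for Dazl (log2 fold change 0.63, SE 0.282, adjusted p = 1), and the members ranged from −0.52 for Lsm14b to 0.68 for Ddx6. The edgeR count of members was 0 of 10, with 0% of all genes called; 1 member and 513 genes had an unadjusted p under 0.05. DESeq2 called 0 members and 2 genes. The member median was 0.05, and that of all genes 0.01.

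Among the portions at 18 cycles, size factors from median ratios compare composition and those from ERCC compare amount. By composition, 1/8 differed from the 18-cycle whole oocytes in Zar1, Ybx2 and Dazl. Zar1 fell by 1.68 (SE 0.282, adjusted p = 0.000205) and Ybx2 fell by 1.61 (SE 0.304, adjusted p = 0.000553), each lower in 2 of 2 libraries. Dazl rose by 1.49 (SE 0.326, adjusted p = 0.00182), higher in 2 of 2 libraries, relative to a median of 0.03 over all genes, whereas by ERCC it was lower like all members. That made 3 of 10 members called, against 15.7% of the 14788 genes tested, with 8 members and 5804 genes at an unadjusted p under 0.05 and a member median of −0.44, and the count is again read as a description. The other 7 ranged from −1.08 for Lsm14b to 0.87 for Patl2. Dazl lost its call without replicate 2 of the whole oocytes (1.05, adjusted p = 0.0341) or without replicate 2 of 1/8 (1.45, adjusted p = 0.0109). This comparison and that of 18 with 10 cycles share the whole oocytes at 18 cycles, so their values are not independent.

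The 1/2 and 1/4 portions had no called member by composition. In 1/2 the smallest adjusted p was that of Lsm14b (log2 fold change −1.36, SE 0.395, adjusted p = 0.104), and the members ran from that value to 0.97 for Dazl with a median of −0.44. The edgeR count was 0 members against 0.122% of genes, with 4 members and 1943 genes of 14788 at an unadjusted p under 0.05 and 0 members called by DESeq2, which called 1.03% of genes. In 1/4 Lsm14b again had the smallest adjusted p (−1.82, SE 0.4, adjusted p = 0.0229), and the range went up to 1.09 for Dazl with a median of 0.05. The count was 0 by edgeR against 0.46% of genes, with 6 members and 2331 genes at an unadjusted p under 0.05, and it was 0 by DESeq2 against 1.63% of genes. The Lsm14b values rest on replicate 2 of the whole oocytes, at 2493 CPM against 853 in replicate 1: without replicate 1 Lsm14b was the 1 member called in both portions, against 0.212% of genes in 1/2 and 0.712% in 1/4.

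The 1/8 portions were also compared with the 1/4 portions, a comparison added after the data had been seen. It sets no whole oocyte against a portion, although the whole oocytes at 18 cycles entered the fit, its size factors and its spread. Zar1 fell by 1.78 (SE 0.283, adjusted p = 0.000429), lower in 2 of 2 libraries, and was the 1 member called, against 4.96% of genes. Ybx2 was at −0.80 (adjusted p = 0.0829) and the member median was −0.04. The Zar1 call ended without replicate 2 of 1/8 (−1.51, adjusted p = 0.013) and without replicate 1 of 1/4 (−1.62, adjusted p = 0.0114), each of which leaves 1 library in a group that is assumed to vary like the others.

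Against whole oocytes at 10 and 14 cycles together, 1/8 had no called member. Patl2 had the smallest adjusted p (log2 fold change −0.65, SE 0.252, adjusted p = 0.212). Its normalized counts averaged 310.8 in 1/8 and 489.6 in the whole oocytes, which is given as a description only. Zar1 was at 0.28 and Ybx2 at 0.29, and the members ranged from −0.65 to 0.29 with a median of 0.05. The edgeR count was 0 of 10, with 0% of 18041 genes called, 1 member and 2866 genes at an unadjusted p under 0.05, and 0 members and 190 genes called by DESeq2. Cycle number and input differ together in this comparison and cannot be told apart, and a p above the threshold does not show that the levels were equal.

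**Figure D2:**
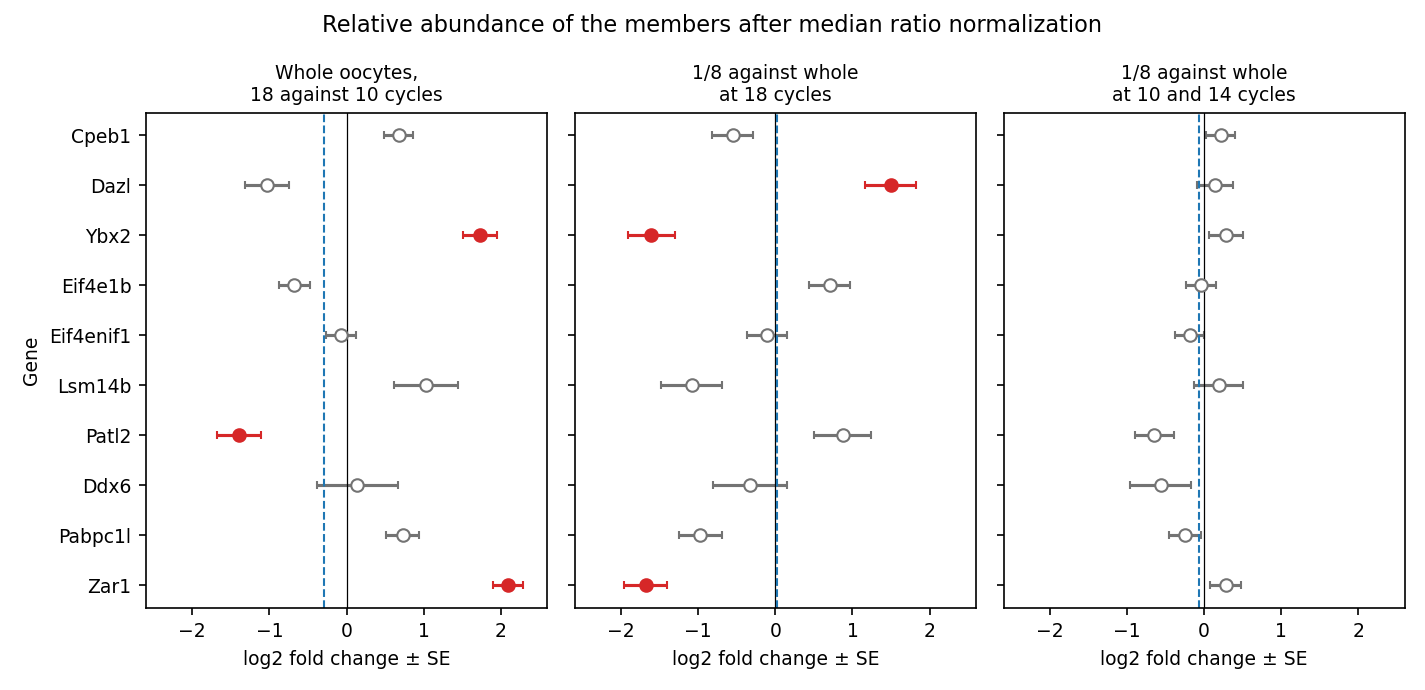
Log2 fold changes (horizontal axis) of the 10 members (vertical axis) in 3 comparisons, with standard errors worked out from the F statistic of each test. Points are filled where called by edgeR at an adjusted p under 0.01, and the dashed line is at the median of all genes. Zar1 is at 2.09, −1.68 and 0.28 from left to right, and Patl2 at −1.39 in the left panel, where ERCC size factors gave 0.95.

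By ERCC, amounts were lower in every portion than in whole oocytes at 18 cycles. In 1/2, 9 of 10 members fell, against 52% of genes, with a member median of −2.46 and a median of −2.00 over all genes. Dazl was the exception (−1.10, SE 0.485, adjusted p = 0.0419). In 1/4, 10 of 10 fell, against 69.7% of genes, from −1.79 for Dazl to −4.34 for Lsm14b, with medians of −2.68 over the members and −2.69 over all genes. In 1/8, 10 of 10 fell, against 87.5% of genes, from −3.59 for Dazl to −6.63 for Zar1 (SE 0.594, adjusted p = 3.32e-14), with medians of −5.49 and −4.92. These values lean on replicate 1 of the whole oocytes. Without it, 5 members fell in 1/2, against 21.1% of genes, and 7 in 1/4, against 50.9%. The member medians were then −1.621 for 1/2, −2.131 for 1/4 and −4.734 for 1/8, where the dilution is −1, −2 and −3, and Ddx6 in 1/4 was at 0.196. The whole oocytes of this fit held 1611 and 1474 ERCC counts. The 1/2 libraries held 9167 and 10467, those of 1/4 held 18802 and 29075, and those of 1/8 held 231470 and 36593.

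The steps among the portions do not involve the whole oocytes. Summed over the 10 members, counts per 1000 ERCC counts were 3519 in 1/2, 1866 in 1/4 and 294.5 in 1/8 (group means). From 1/2 to 1/4 the sum was 1.89-fold lower and all genes together 2.02-fold lower, close to the dilution. Zar1 had 2204 and 1145 of these sums, and single members ran from 2.63-fold lower for Ybx2 to higher in 1/4 for Patl2 (a ratio of 0.653) and Ddx6 (0.485), with a median of 1.75-fold. From 1/4 to 1/8 the sum was 6.33-fold lower and all genes 4.05-fold lower, more than the dilution. The members differed widely in that last step, from 2.35-fold for Lsm14b to 13.3-fold for Zar1, with a median of 3.98-fold. Whole oocytes at 10 and 14 cycles had 2066 summed over the members. Relative to them the members' sum was 170.3% in 1/2, where a portion exceeded whole oocytes, then 90.3% in 1/4 and 14.3% in 1/8. All genes together were at 113.1%, 56.06% and 13.8%, so of the portions only 1/8 lay near its dilution on this scale. In 1/8 the members ran from 8.35% for Patl2 to 16.0% for Zar1. Each whole library held 1 oocyte and each portion a set share of a lysate, so less RNA was present in the portions by design. Beyond that share, less RNA present and less RNA recovered cannot be told apart.

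**Figure D3:**
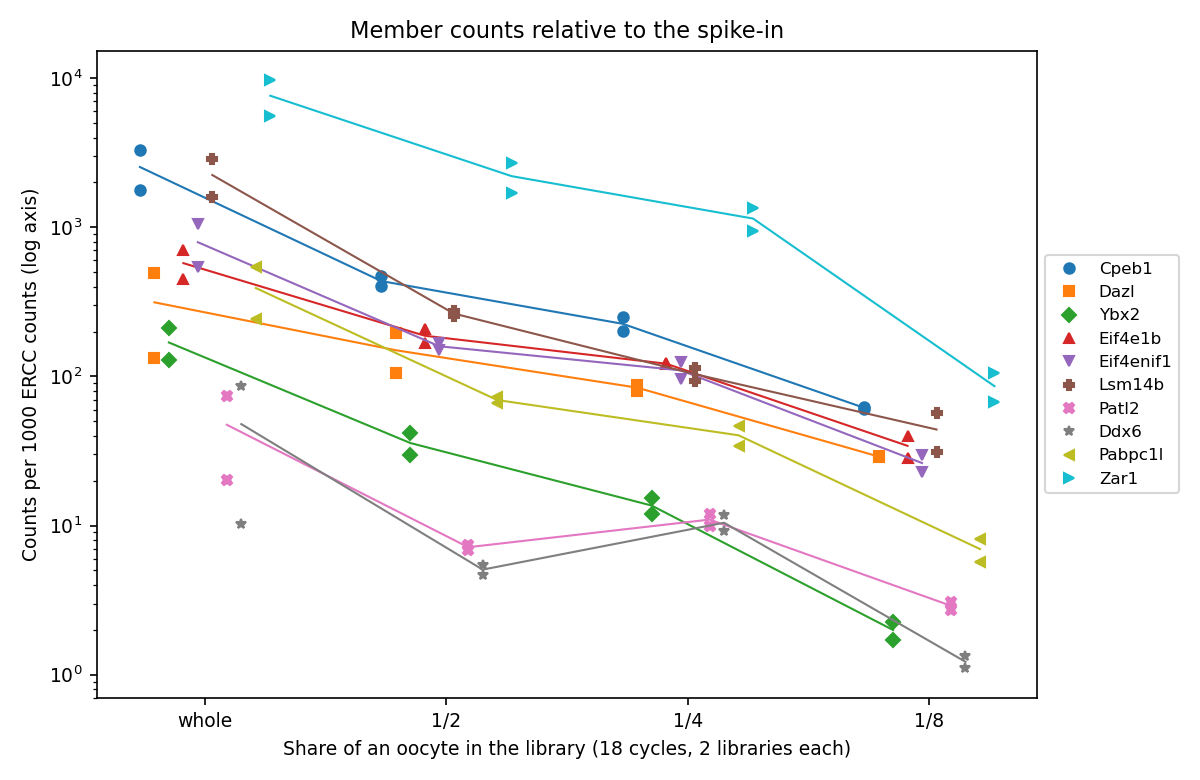
Counts per 1000 ERCC counts (vertical axis, log scale) of the 10 members in whole oocytes, 1/2, 1/4 and 1/8 at 18 cycles (horizontal axis), with 1 point for each library and lines joining group means. Zar1 drops 13.3-fold from 1/4 to 1/8 and Lsm14b 2.35-fold.

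The members that moved differ in base composition. The G and C share of the longest coding transcript was 63.4% for Ybx2 and 62.1% for Zar1, the highest of the 10, and 37.0% for Dazl, the lowest, with Patl2 at 50.1%. Among the 745 genes with a share of at least 60%, 34.9% rose and 0.671% fell at 18 against 10 cycles, with a median of 1.54. Among the 1007 genes under 40%, 2.98% rose and 21.3% fell, with a median of −1.47. In 1/8 against whole oocytes at 18 cycles by composition, the 694 genes of at least 60% had a median of −1.55 and the 755 genes under 40% one of 1.06. Over all genes, Spearman's rho between this share and the log2 fold change was 0.391 at 18 against 10 cycles and 0.552 over the 10 members, which share libraries and are not independent. At 14 against 10 cycles rho was 0.005 over all genes and −0.333 over the members. For the portions against whole oocytes at 18 cycles by composition, rho over all genes was −0.190 in 1/2, −0.188 in 1/4 and −0.412 in 1/8. Over the members it was 0.285, −0.406 and −0.600. At 18 against 10 cycles Patl2 fell, and the 4441 genes of 50% to 55% had a median of −0.12. The calls of Zar1, Ybx2, Dazl and Patl2 have the sign of the median of their composition class. For Patl2 that median was only −0.12. Among the members not called at 18 against 10 cycles, Dazl, Eif4e1b and Eif4enif1 also had the sign of their class median. Cpeb1 (0.68) and Lsm14b (1.03) had the opposite sign to the median of their class (−0.59). So did Ddx6 (0.14, class median −0.92) and Pabpc1l (0.73, class median −0.12). The part of base composition in these calls was not tested.

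Stored mRNAs carry regulatory letters near their 3′ ends, and the libraries were made from poly(A) RNA, so the last 100 bases of the 3′ UTR of each member were searched on the transcript strand. The letters were AATAAA and ATTAAA, the polyadenylation signal, and TTTTAT and TTTTAAT, the cytoplasmic polyadenylation element bound by CPEB1. A polyadenylation signal was in 9 of 10 members, against 78.5% of the 19857 genes with a window of this length. A cytoplasmic polyadenylation element was in 1 of 10, Ybx2, against 17.8%. A match describes the letters only and an absent match draws nothing about the factor. The sites of the called members in the annotated transcript used are shown so that the letters can be read, and which 3′ end the oocytes used was not measured. Matched letters are in capitals, on GRCm38: Zar1 at chr5:72577117-72577146 on the minus strand, Ybx2 at chr11:69941532-69941561 on the plus strand, Dazl at chr17:50279400-50279429 on the minus strand and Patl2 at chr2:122120115-122120144 on the minus strand.
Zar1: ataaagcctgtgAATAAAaggtattgcaaa
Ybx2: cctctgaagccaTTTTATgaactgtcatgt
Dazl: cttgtatacacgAATAAAacctttttttca
Patl2: ggccttgtatttAATAAAagtctaatctgg
Ybx2 had none of the polyadenylation signals in this window, and Eif4enif1 and Pabpc1l had ATTAAA in place of AATAAA.

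The oocyte forms were compared with their paralogs per length, in each library. Cpeb1 exceeded Cpeb2, Cpeb3 and Cpeb4 in 12 of 12 libraries. The median ratio was 18.5 to Cpeb3 and 39.0 to Cpeb4. For Cpeb2 it was 701 over 11 libraries, since Cpeb2 had 0 counts in replicate 2 of 1/8 and at most 90 in any library. Eif4e1b exceeded Eif4e, the general cap-binding protein, by a median of 26.4 and Eif4e2 by 110.5, in 12 of 12. Pabpc1l exceeded Pabpc1 by a median of 27.6 and Pabpc4 by 6.01, Patl2 exceeded Patl1 by 6.39 and Lsm14b exceeded Lsm14a by 5.80, in 12 of 12 libraries each. Dividing by the longest transcript kept these directions in all 12 but lowered the medians to 54.1 for Eif4e1b over Eif4e2, 14.2 for Pabpc1l over Pabpc1 and 3.14 for Lsm14b over Lsm14a, so the sizes depend on the length used. Zar1 exceeded Zar1l in 12 of 12 libraries, but the median ratio of 8.24 lies between separate ranges. The ratio ran from 1.62, in replicate 2 at 10 cycles, to 2.86 in the libraries at 10 and 14 cycles and of 1/8. In whole oocytes at 18 cycles, 1/2 and 1/4 it ran from 13.6 to 22.6, the latter in replicate 1 at 18 cycles. Ybx2 was the exception: it was below Ybx1, the general Y-box protein, in 12 of 12 libraries, with a median ratio of 0.332, and above Ybx3 in 4 of 12, with a median of 0.780, or in 0 of 12 by longest transcript. Boll, the other DAZ family gene, had 3 counts at most in any library and 0 in 9, so no ratio to Dazl is given.

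Reads of Zar1 and Eif4e1b can be confused with copies in the genome. Gm15847, a transcribed pseudogene on chromosome 5, is 95.2% identical to Zar1 over 1083 bases and had 1 to 104 counts per library, where Zar1 had 2457 to 27637. Gm42668, a gene still to be experimentally checked, also on chromosome 5, is 97.22% identical to Zar1 over 108 bases and had 0 to 34 counts. Gm5705, a processed pseudogene, is 95.04% identical to Eif4e1b over 726 bases and had 3 to 122 counts, where Eif4e1b had 659 to 11175. The other 8 members had no match of at least 95% over 100 bases. No member shared an exonic base with another gene. Pabpc4, Ybx1, Pabpc1 and Eif4e have near-identical copies elsewhere in the genome, and the part of reads that map to both in the ratios above was not tested.

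Other genes of the same pathways were counted at 18 against 10 cycles and in 1/8 against whole oocytes at 18 cycles by composition. Of all genes tested, 12.3% rose and 10.8% fell in the first comparison, and 7.06% rose and 8.69% fell in the second. Of the paralogs, 13 of 15 were tested: 2 rose, Cpeb3 (2.07) and Ybx1 (1.55), and 3 fell, Eif4e (−2.25), Zar1l (−1.48) and Cpeb4 (−1.44), at 18 cycles. In 1/8, 3 of 13 rose, Eif4e (2.19), Zar1l (1.38) and Cpeb4 (1.34), and Cpeb3 fell (−2.27). Of the 13 genes of cytoplasmic polyadenylation and 4E-binding proteins, 2 rose at 18 cycles, Eif4ebp2 (1.27, adjusted p = 0.00449), a repressor of cap-dependent initiation, and Fip1l1 (0.92, adjusted p = 0.00733), a polyadenylation factor. Aurka, a kinase of meiosis and mitosis reported to act on CPEB1, fell by 1.46 (adjusted p = 0.00114), and in 1/8 it rose by 1.75 (adjusted p = 0.000188) while 2 fell, Eif4ebp2 (−1.53) and Eif4ebp1 (−3.50). Eif4ebp1 had a mean of 23.6 normalized counts, below the limit used for naming genes, and was named after its values were seen, because few genes of the list were called.

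Of 28 other mRNA-binding proteins, 26 were tested and 5 rose and 2 fell at 18 against 10 cycles. The list is not complete, since some genes of this kind were not analysed here and were taken off it after values had been seen. Nanos1, a translational repressor of germ cells, rose by 3.46 (adjusted p = 4.92e-05), Dazap1, a DAZL partner, rose by 1.82 (adjusted p = 0.00242) and Igf2bp2, an mRNA-binding protein, rose by 0.91. Fxr1, a relative of the fragile X protein, fell by 1.30 (adjusted p = 0.00104) and Larp4b, a La-related protein, fell by 1.02 (adjusted p = 0.00245). In 1/8, 1 rose, Fxr1 (1.42), and 2 fell, Nanos1 (−3.06, adjusted p = 6.99e-06) and Dazap1 (−1.82). Of 7 genes of decapping and P-bodies linked to DDX6, Lsm1, of the Lsm ring (2.15), and Dcp2, the decapping enzyme (1.06), rose and Xrn1, the 5′ exonuclease (−1.38), fell at 18 cycles, and Lsm1 fell in 1/8 (−1.32). None of these lists had a called gene at 14 against 10 cycles, in 1/2 or 1/4 by composition, or in 1/8 against 10 and 14 cycles. In 1/8 against 1/4, where 1.54% of all genes rose and 3.42% fell, Eif4e rose (1.57) and Ybx1 (−1.24), Eif4ebp2 (−2.04) and Nanos1 (−2.07) fell, and 2 of the 10 oocyte markers rose, Bmp15 (1.32) and Oosp1 (2.32), named after their values were seen. Of the oocyte markers, 8 of 10 fell at 18 against 10 cycles, against 10.8% of all genes, with a median of −1.48, and 6 of 10 rose in 1/8, against 7.06% of all genes, with a median of 1.24. Of the 11 granulosa and cumulus markers tested at 18 against 10 cycles, 2 fell, Cyp19a1 (−1.92) and Kitl (−1.99). The median over the 11 was −0.68. Of the 7 tested in 1/8, 1 rose, Cyp19a1 (2.34), while the median over the 7 was −2.23. These markers were named after their values were seen. The part of these shifts in the members' values was not tested.

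In log2 CPM over the 12 libraries, 21 of the 45 pairs of members had a positive and 24 a negative Pearson's r, against 51.2% positive among all pairs of the 8859 genes with a mean of at least 10 CPM. Values of the member pairs ran from −0.89 for Ybx2 and Eif4e1b to 0.90 for Eif4enif1 and Patl2, and 0.90 for Ybx2 and Zar1. The pairs share libraries, depth and the separation of the groups, and no p is given. The genes outside the set most like the mean profile of the members, among 8849 with a mean of at least 10 CPM, were Kdm1b (r = 0.95), Usp22 (0.95) and Iqgap1 (0.95) over 12 libraries. That profile, in centred log2 CPM, ran only from −0.316 in replicate 1 of 1/2 to 0.200 in replicate 2 of 1/4. It averages members that moved in opposite directions, with a median r of −0.067 over the pairs, and need not follow any single member. The genes named were picked as the highest of the 8849, so their r values are a description only.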

How the data were processed

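Raw gene counts are as deposited: the authors trimmed, aligned and counted reads per gene and ERCC molecule, per the labels with cutadapt 2.5, STAR 2.7.2a and HTSeq 0.9.1 on mm10. No duplicates were removed. Between 6.9% and 10.8% of reads lay on no feature and 2.64% to 4.53% were ambiguous. edgeR 4.0.16 in R 4.3.3 fitted every gene that reached 5 counts in 2 or more libraries: 6 whole oocytes, 8 libraries at 18 cycles, or all 12. Size factors were median ratios over genes or over ERCC molecules, and adjusted p under 0.01 was a call. Each SE is the size of the log2 fold change divided by the square root of the F statistic of its edgeR test. DESeq2 1.42.0, TMM, other filters, ERCC totals, a replicate block and leaving out each library were alternatives. The method was tested on simulated data. Lengths, base composition and sequences came from GENCODE M21, copies from BLAST 2.17.0, and Python 3.11.15, numpy 2.4.6, pandas 2.3.3 and matplotlib 3.10.9 served the rest. The members and lists were chosen with earlier results of these data known. Named are all members, called members with their statistics or else the one with the smallest adjusted p, called pathway genes with a mean of at least 50 normalized counts, up to 3 in each direction, and the 3 genes most like the mean member profile. Intervals were not used, and the errors given do not cover PCR duplication.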

Additional observations from a re-analysis of the deposited data

How the results depend on the processing

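At 18 against 10 cycles, the 3 calls, against 23.1% of genes, became 7 with DESeq2 (29.4% of genes), 8 with no filter (18.5%), 5 with at least 10 counts in every library (44.5%) and 8 with ERCC size factors (47.6%), all 8 of them higher, where Patl2 reversed to 0.95 (adjusted p = 0.102). TMM gave 3 (23.6%). Leaving out each library gave 2 to 5: 2 without 10-cycle replicate 1 (11.3%) or replicate 2 (9.39%), 4 without replicate 2 (22.9%) and 5 without replicate 1 (17.1%) of the 18-cycle oocytes. With replicate numbers as a block there were 4 calls (25%), and 5 (28.1%) with the 14-cycle numbers crossed, an alternative chosen after seeing the data. Replicate numbers do not pair these oocytes: deviations of same-numbered libraries correlated between −0.18 and 0.249.

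In 1/2 and in 1/4 by composition, no filter gave 1 call each (0.897% and 0.844% of genes) and leaving out each library gave 0 to 1, the 1 being Lsm14b without replicate 1 of the whole oocytes at 18 cycles (0.212% and 0.712%); the replicate block gave 1 in 1/4 (0.852%). In 1/8 against 1/4, with 1 call against 4.96% of genes, the count became 0 without replicate 2 of 1/8 (1.07%) and without replicate 1 of 1/4 (0.702%). In 1/8 by composition the 3 calls, against 15.7%, became 4 with DESeq2 (19.2%), no filter (11.6%), the replicate block (17.9%) and without replicate 1 of the whole oocytes (7.52%), and 2 without replicate 2 of the whole oocytes (10.9%) or of 1/8 (8.92%). They stayed 3 with at least 10 counts in every library (25.8%) and with TMM (15.5%). By ERCC, leaving out each library gave 5 to 10 calls in 1/2, with 5 without replicate 1 of the whole oocytes (21.1% of genes) and 6 without replicate 2 of 1/2 (13.2%). It gave 7 to 10 in 1/4, with 7 without replicate 1 of the whole oocytes (50.9%) or without replicate 1 (53.8%) or 2 (46.7%) of 1/4, and 10 in 1/8. Ddx6 in 1/4 then ranged from −2.95 to 0.20, reversed (adjusted p = 0.791) without replicate 1 of the whole oocytes. At 14 against 10 cycles and in 1/8 against 10 and 14 cycles the count was 0 under each alternative. Where counts changed, the cause was not tested, and some alternatives also changed which genes or samples entered the fit. Counting reads on no feature and ambiguous reads in the total lowered each summed level, to between 5082 and 8577 CPM. With the longest transcript, Lsm14b over Lsm14a was 3.14, Pabpc1l over Pabpc1 14.2, and Eif4e1b over Eif4e2 54.1.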
